A study of Homo sapiens with 9 samples.

Results

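IL13RA2, the high-affinity interleukin-13 receptor with a short cytoplasmic tail, was followed together with 6 related class I cytokine receptors: IL13RA1, IL4R, IL6ST, LIFR, CNTFR and IL6R. The 7 genes were taken by name from a deposited table of 34961 genes, and all 7 were found in it. They had been picked with their levels by day already known, so their levels and fold changes are a description and carry no p-value. The libraries came from the WA09 (H9) line of human embryonic stem cells carrying a knock-in of the fluorescent reporter EGFP at TPH2, the gene for the brain enzyme that starts serotonin synthesis. Day0 libraries were labelled as embryonic stem cells, Day21 libraries as neural progenitors and Day42 libraries as TPH2+ serotonin neurons, with 3 libraries per day. All 9 libraries share the line, the knock-in and a treatment label naming serotonin neuron induction, which the Day0 libraries carry as well. The line is 1 genetic background, and the labels do not say whether Day42 cells were sorted or whether replicates were separate cultures, so p-values measure only the spread between these libraries.

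IL-13 signals through a receptor made of IL13RA1 and IL4R, which also binds IL-4, while IL-4 alone can use IL4R with the common gamma chain IL2RG. Both assemblies act through Janus kinases and the transcription factor STAT6. IL13RA2 binds IL-13 more tightly, lacks a kinase-binding tail and is best known as a decoy, and it also binds the chitinase-like protein CHI3L1 with TMEM219 as a partner. IL6ST encodes gp130, the shared signalling chain for IL-6, LIF, CNTF and related ligands, which pairs with LIFR for LIF and CNTF and acts mainly through STAT3. CNTFR and IL6R are ligand-binding chains that add CNTF or IL-6 specificity. In the nervous system CNTF and LIF are known for supporting neurons and for directing progenitors towards astrocytes.

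IL13RA2 lies on chromosome X of GRCh38 at chrX:115003975-115018973 on the minus strand, as a gene of 10 or 11 exons in its 2 protein-coding GENCODE 29 transcripts, and no other gene model overlaps it. IL13RA1 lies on the same chromosome, 3.71 Mb away, at chrX:118727133-118794535 on the plus strand. IL4R is at chr16:27313668-27364778, IL6ST at chr5:55935095-55995022, LIFR at chr5:38474668-38595404, CNTFR at chr9:34551432-34590123 and IL6R at chr1:154405193-154466877. These last 5 each overlap a gene model on the opposite strand, such as LIFR-AS1, CNTFR-AS1 and IL6R-AS1, and LIFR also holds MIR3650 on its own strand. IL13RA1 overlaps 2 small models on its own strand. Reads could be shared with those models, since no source used here says whether strand was taken into account.

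RefSeq promoter windows (GRCh38.p14) were matched for IL13RA1, IL4R, IL6ST, LIFR, CNTFR and IL6R, which is 6 of the 7 genes, and the 250 bases before the RefSeq start were read on the strand of each gene. The LIFR and CNTFR windows are printed because these receptors are partners in the CNTF receptor and stand at opposite ends in CG content. Capitals mark, in LIFR, the match to TTCNNNGAA, the letters that STAT3 binds, and, in CNTFR, the CG dinucleotides.
LIFR: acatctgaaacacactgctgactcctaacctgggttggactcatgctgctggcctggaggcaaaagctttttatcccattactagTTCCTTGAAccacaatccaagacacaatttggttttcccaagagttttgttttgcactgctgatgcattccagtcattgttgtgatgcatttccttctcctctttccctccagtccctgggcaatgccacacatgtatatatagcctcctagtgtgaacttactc
CNTFR: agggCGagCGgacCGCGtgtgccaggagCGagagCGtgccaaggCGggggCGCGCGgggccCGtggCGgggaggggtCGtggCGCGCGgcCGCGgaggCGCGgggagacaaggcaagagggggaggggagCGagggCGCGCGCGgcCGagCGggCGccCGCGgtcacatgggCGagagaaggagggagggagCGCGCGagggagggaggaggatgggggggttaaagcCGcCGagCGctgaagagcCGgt
The LIFR window spans chr5:38595406-38595655 on the minus strand and has 45.2% G and C and 0 CG dinucleotides. The CNTFR window spans chr9:34589725-34589974 on the minus strand and has 77.6% G and C and 38 CG dinucleotides, more than 96.8% of the 27305 promoters in the table, whose median was 58.0% and 11. The windows of IL13RA1, IL4R, IL6ST and IL6R had 28, 35, 31 and 22 CG dinucleotides, all above that median. Both strands were searched for TATAAA, TTCNNNGAA, the same letters with 1 further N in the gap, and GATAA, which occur in 11.1%, 6.78%, 5.35% and 20.97% of all such windows. LIFR held TTCNNNGAA at position -165 and GATAA at position -180 relative to the start, and no match to any of the 4 was found in the other 5 windows. The RefSeq start used is 1 base from the deposited gene start for LIFR and 399 bases from it for CNTFR, so the CNTFR window lies inside the deposited gene span.

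Total counts per library were 58526466 to 66034630 on Day0, 63031962 to 66515692 on Day21 and 59429495 to 69658328 on Day42. Genes with a count above 0 numbered 22198 to 24359 on Day0, 24581 to 24741 on Day21, and 16077, 17101 and 10797 in Day42 replicates 1, 2 and 3. Of 7743 genes at 1 FPKM or more in every Day21 library, 9.98%, 8.58% and 32.7% had at most 12 counts in Day42 replicates 1, 2 and 3, against 1.82% to 2.36% in the Day0 libraries. FPKM is the number of fragments scaled to transcript length and library size and allows levels of different genes to be compared. Day42 replicate 3 therefore stands apart, and the receptor means, and the fold changes that it moves by over 1.5 times, are given with and without it. Counts piled up at multiples of 4, so 12 counts, or 3 such steps, per library was taken as the limit that a count of 0 allows. This limit covers counting error only, and Day42 libraries differed by far more. For example, IL13RA1 had 4, 643 and 4 counts and STAT6 had 0, 351 and 0 counts in Day42 replicates 1, 2 and 3. Bounds on falls to 0 counts on Day42 therefore leave out that spread between libraries. As checks of the labels, POU5F1, a pluripotency factor, had at most 0.0885 FPKM in any Day21 or Day42 library, against 115, 88.3 and 192 FPKM on Day0. TPH2 stood at 22.2, 17.2 and 15.2 FPKM on Day42 and at most at 0.155 FPKM in any earlier library. The serotonin transporter gene SLC6A4 was at 0 in all 3 Day42 libraries.

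IL13RA2 was close to absent on Day0 and among the most abundant transcripts on Day42. It had 0.0320, 0 and 0 FPKM on Day0, 6.15, 4.998 and 5.33 FPKM on Day21, and 273, 319 and 492 FPKM on Day42. The counts behind these levels were 4, 0 and 0 in Day0 libraries, 853, 673 and 698 in Day21 libraries, and 30938, 37338 and 62714 in Day42 libraries. The 3 days did not overlap, and Day42 replicate 3, the library with the fewest genes detected, had the highest value. The mean level was 0.0107 ± 0.0185 FPKM in Day0 libraries, 5.49 ± 0.592 FPKM in Day21 libraries and 361 ± 115 FPKM in Day42 libraries (SD, n = 3 each), and 296 FPKM in Day42 libraries without replicate 3. By FPKM, IL13RA2 ranked 128th, 96th and 72nd among all genes in Day42 replicates 1, 2 and 3, against 3870th, 3944th and 3865th in the Day21 libraries. In a bulk sample, fewer cells of a type and less RNA per cell cannot be told apart.

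The fitted log2 fold change of IL13RA2 was 5.41 ± 0.80 (SE) for Day42 over Day21, and 5.08 without Day42 replicate 3. Because Day0 held only 4 counts in all, its fitted fold changes against Day0 depend on the prior count. The ratio of summed scaled counts, with those 4 counts taken as 1 independent event, was 500.3 for Day21 over Day0, with an exact 95% interval of 89.4 to 19796 that covers counting error only. For Day42 over Day0 the same ratio was 21338, with an interval of 3830 to 842841, and it was 16878 without Day42 replicate 3. The summed FPKM of the neuron markers STMN2, DCX, MAP2, TUBB3, SYT1 and ELAVL4 rose with IL13RA2. It was 5.83 to 18.6 on Day0, 105 to 153 on Day21 and 1172 to 1465 on Day42. STMN2 gave 875, 963 and 1170 FPKM of the Day42 sum. TUBB3 overlapped between Day21, at 36.6, 75.8 and 25.3 FPKM, and Day42, at 97.8, 19.1 and 72.6 FPKM. The other markers of this list were higher in every Day42 library than in every Day21 library. The sum over 8 serotonin neuron markers was 0.565 to 1.22 on Day0, 1.79 to 1.98 on Day21 and 592 to 650 on Day42. FEV gave 412, 409 and 380 FPKM of the Day42 sum and DDC 148, 104 and 111 FPKM. In Day42 replicate 3 SLC18A2 was at 0.201 FPKM and LMX1B at 0. TPH2 and SLC18A2 were lower in every Day21 library than in every Day0 library. The part of either list in the IL13RA2 level was not tested. Markers of mesenchyme and fibroblasts, 7 genes, ran otherwise and summed to 1.06 to 1.96 FPKM on Day0, 108 to 114 on Day21 and 18.3 to 52.0 on Day42. LUM gave 77.7, 89.5 and 88.2 FPKM of the Day21 sum and 14.8, 45.2 and 0 FPKM of the Day42 sum. COL3A1 overlapped between Day21, at 19.7, 9.77 and 8.57 FPKM, and Day42, at 8.67, 3.70 and 14.3 FPKM. The rest of this list was lower in every Day42 library than in every Day21 library. The 6 astroglia markers summed to 26.1 to 33.3 FPKM on Day0, 9.64 to 10.8 on Day21, and 17.7, 4.23 and 4.59 on Day42. On Day42 that sum was mostly GJA1, at 15.2, 3.54 and 4.58 FPKM, with S100B at 2.46 FPKM in replicate 1, while the defining markers GFAP, AQP4 and ALDH1L1 were at 0 in all 3 libraries. The 6 blood cell and microglial markers summed to 5.35 to 6.67 FPKM on Day0, 0.327 to 0.478 on Day21 and 0.291 to 2.17 on Day42. AIF1 gave 5.02 to 6.54 FPKM of the Day0 sum, CD68 had 1.47, 1.96 and 0 FPKM on Day42 against at most 0.171 FPKM in any earlier library, and CX3CR1 was at 0 in every library of Day21 and Day42.

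**Figure D1:**
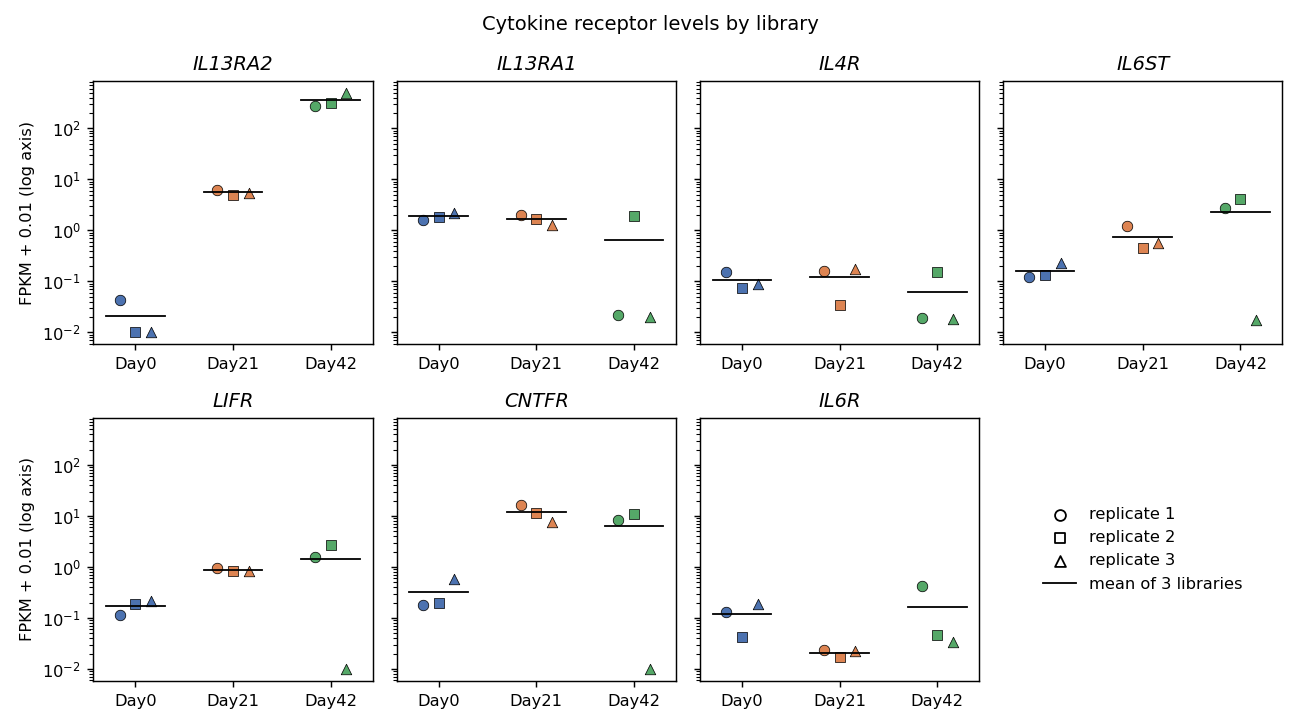
FPKM of the 7 receptors in each library on a log axis after adding 0.01, by day from Day0 to Day42, with marker shapes for replicates and a line at the mean of 3 libraries. IL13RA2 is at 273 to 492 FPKM on Day42, above every other receptor, while LIFR and CNTFR are at 0 in Day42 replicate 3 and IL13RA1 is near its earlier level only in Day42 replicate 2.

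The chains of the signalling IL-13 and IL-4 receptor did not share this pattern. IL13RA1, which binds IL-13 weakly until IL4R joins it, had 1.60, 1.83 and 2.21 FPKM on Day0, 1.98, 1.64 and 1.27 FPKM on Day21, and 0.0114, 1.92 and 0.0103 FPKM on Day42. In FPKM Day0 and Day21 overlapped, and on Day42 replicate 2 was within the earlier range while replicates 1 and 3 held 4 counts each. On counts scaled for the fit, Day42 replicate 2 lay below every earlier library. The IL13RA1 log2 fold change was -2.04 ± 1.62 (SE) for Day42 over Day21, and it was -7.62 without Day42 replicate 2, so that library sets its size. IL4R, the chain shared by the IL-4 and IL-13 receptors, had 0.141, 0.0644 and 0.0784 FPKM on Day0, 0.150, 0.0239 and 0.162 FPKM on Day21, and 0.00917, 0.139 and 0.00815 FPKM on Day42. All 3 days overlapped, at 4 to 77 counts a library, and again replicate 2 was the Day42 library with the highest value. The IL4R log2 fold change for Day42 over Day21 was -1.77 ± 1.27 (SE), and -4.09 without Day42 replicate 2. The ratio of IL13RA2 to IL13RA1 in FPKM was 23869, 166 and 47698 in the Day42 libraries, against 3.11, 3.05 and 4.19 in the Day21 libraries. The ratios of Day42 replicates 1 and 3 rest on 4 counts of IL13RA1 each, which is under the limit of 12 counts.

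The gp130 family chains IL6ST, LIFR and CNTFR were higher in every Day21 library than in every Day0 library. IL6ST, the shared signal chain, had 0.109, 0.125 and 0.216 FPKM on Day0, 1.20, 0.447 and 0.541 FPKM on Day21, and 2.78, 4.02 and 0.00741 FPKM on Day42. LIFR, its partner for LIF and CNTF, had 0.103, 0.176 and 0.203 FPKM on Day0, 0.941, 0.813 and 0.815 FPKM on Day21, and 1.53, 2.67 and 0 FPKM on Day42. For both chains Day42 replicates 1 and 2 stood above all Day21 libraries and replicate 3 below all Day0 libraries, with 6 counts of IL6ST and 0 of LIFR. The IL6ST log2 fold change was 2.19 ± 1.43 (SE) for Day21 over Day0 and 0.99 ± 1.38 for Day42 over Day21, the second being 1.58 without Day42 replicate 3. For LIFR the same fold changes were 2.37 ± 1.73 and 0.02 ± 1.65, the second being 0.61 without that library.

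CNTFR, the chain that binds CNTF and is held to the membrane by a lipid anchor, was the most abundant of the 7 receptors on Day21. It had 0.170, 0.189 and 0.563 FPKM on Day0, 16.4, 11.4 and 7.66 FPKM on Day21, and 8.36, 11.0 and 0 FPKM on Day42. Every Day21 library was above every Day0 library, and Day42 replicates 1 and 2 fell within the Day21 range. The log2 fold change was 5.23 ± 1.95 (SE) for Day21 over Day0 and -1.53 ± 1.66 for Day42 over Day21, the second being -0.94 without Day42 replicate 3. The ratio of CNTFR to LIFR in FPKM was 1.65, 1.08 and 2.77 in Day0 libraries, 17.5, 13.97 and 9.40 in Day21 libraries, and 5.46 and 4.11 in Day42 replicates 1 and 2. The promoter windows printed above belong to this pair.

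IL6R, the IL-6 binding chain, was low throughout and ran the other way on Day21. It had 0.121, 0.0322 and 0.178 FPKM on Day0, 0.0132, 0.00735 and 0.0122 FPKM on Day21, and 0.412, 0.0368 and 0.0237 FPKM on Day42. The Day21 libraries, at 6 to 8 counts, were below every library of the other days, and Day42 replicate 1, at 186 counts, was the highest of all. All 3 Day21 libraries lie under the limit of 12 counts that a 0 allows. A level this low could also give 0 counts in a library, so its size is uncertain. The log2 fold change was 2.94 ± 1.27 (SE) for Day42 over Day21, and 0.68 without Day42 replicate 1.

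Ordered by mean FPKM, the 7 receptors changed places between days. On Day0 IL13RA1 led, with its lowest library at 1.60 FPKM above the highest value of any other receptor, 0.563 FPKM for CNTFR. CNTFR, LIFR, IL6ST, IL6R and IL4R followed at means of 0.307, 0.160, 0.150, 0.110 and 0.0946 FPKM, each overlapping its neighbour, and IL13RA2 was last. On Day21 the order was CNTFR, IL13RA2, IL13RA1, LIFR, IL6ST, IL4R and IL6R, at means of 11.8, 5.49, 1.63, 0.856, 0.730, 0.112 and 0.0109 FPKM. Of these neighbours LIFR and IL6ST overlapped, and the others did not. On Day42 IL13RA2 stood above the rest in all libraries, and CNTFR, IL6ST, LIFR, IL13RA1, IL6R and IL4R, at means of 6.45, 2.27, 1.40, 0.648, 0.158 and 0.0521 FPKM, overlapped. Without Day42 replicate 3 those 6 means were 9.68, 3.40, 2.10, 0.966, 0.224 and 0.0741 FPKM.

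All 7 receptors passed the filter on low counts and were in the edgeR fit over 20156 genes, where a call needs an adjusted p under 0.05 and a log2 fold change of 1 or more in either direction. For Day21 over Day0, 1 of the 7, IL13RA2, was called, as higher, where 1.32% of all tested genes were called higher and 2.5% in either direction. For Day42 over Day21 it was again IL13RA2, as higher, where 6.52% were called higher, 19.7% lower and 26.3% in either direction. For Day42 over Day0 it was IL13RA2 once more, where 8.82% were called higher, 23.4% lower and 32.2% in either direction. The other 6 receptors were not called in any of these comparisons, with standard errors of 1.17 to 1.95 on the log2 scale. Since the genes were picked for their levels, nothing is read from these counts. The median log2 fold change of all tested genes was 0.03 for Day21 over Day0, -0.54 for Day42 over Day21 and -0.57 for Day42 over Day0. On deposited FPKM with a pseudocount of 1 the last 2 comparisons shifted by 0.50 and 0.56 towards higher values.

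Among 30 genes in the table listed as class I cytokine receptors, the 7 and 23 others, IL13RA2 made up most of the Day42 signal. The list left out IL2RG, and it counted IL2RA and IL15RA, which are not class I receptors by structure. The 30 genes summed to 4.66, 5.69 and 8.62 FPKM in Day0 libraries, 31.6, 22.5 and 19.2 FPKM in Day21 libraries, and 287, 348 and 492 FPKM in Day42 libraries. IL13RA2 gave 0.686%, 0% and 0% of that sum in Day0 libraries, 19.4%, 22.2% and 27.8% in Day21 libraries, and 95.02%, 91.7% and 99.97% in Day42 libraries. CNTFR gave 3.64%, 3.33% and 6.53% in Day0 libraries, 52.0%, 50.5% and 39.9% in Day21 libraries, and 2.91%, 3.16% and 0% in Day42 libraries. The 23 others gave 51.2% to 59.98% on Day0, 14.3% to 17.8% on Day21 and 0.0188% to 2.61% on Day42. In Day42 replicate 3 the second most abundant receptor was CSF3R, the receptor for granulocyte colony-stimulating factor, at 0.0549 FPKM.

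**Figure D2:**
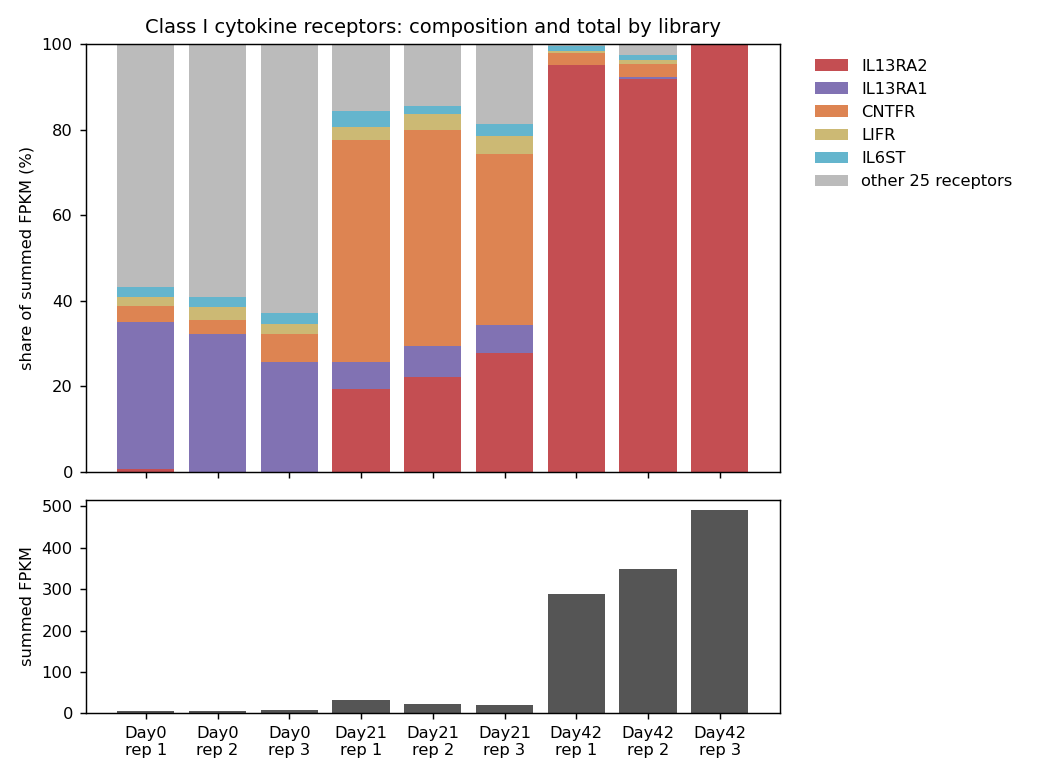
Upper bars split the summed FPKM of 30 genes listed as class I cytokine receptors in each library into IL13RA2, IL13RA1, CNTFR, LIFR, IL6ST and the others, in percent. Lower bars give the sum itself. IL13RA1 and the others make up most of the Day0 bars, CNTFR is the largest single share on Day21, and IL13RA2 takes 91.7% or more of each Day42 bar.

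The genes whose levels ran most like IL13RA2 were found by the Pearson correlation of log2(FPKM + 1) over the 9 libraries, among 4147 genes with a mean of at least 10 FPKM on some day. The 9 points are 3 libraries on each of 3 days, so the coefficient mostly follows the difference between days and is given as a description. DCX, which encodes the microtubule-binding protein doublecortin of young neurons, had the highest value, 0.998. Its mean level was 0.0540 FPKM on Day0, 4.15 on Day21 and 108 on Day42, close to IL13RA2 on Day21 and below it on Day42. RCAN1, an inhibitor of calcineurin, followed at 0.997, with means of 0.446, 2.43 and 23.4 FPKM on Day0, Day21 and Day42. CDKN2D, an inhibitor of cyclin-dependent kinases, had the same rounded coefficient at means of 4.23, 14.4 and 187 FPKM. PHYHIPL reached 0.997 as well, and CYRIA, a regulator of actin branching through Rac, reached 0.996. None of these 5 genes had as low a mean as IL13RA2 on Day0 or as high a mean on Day42.

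**Figure D3:**
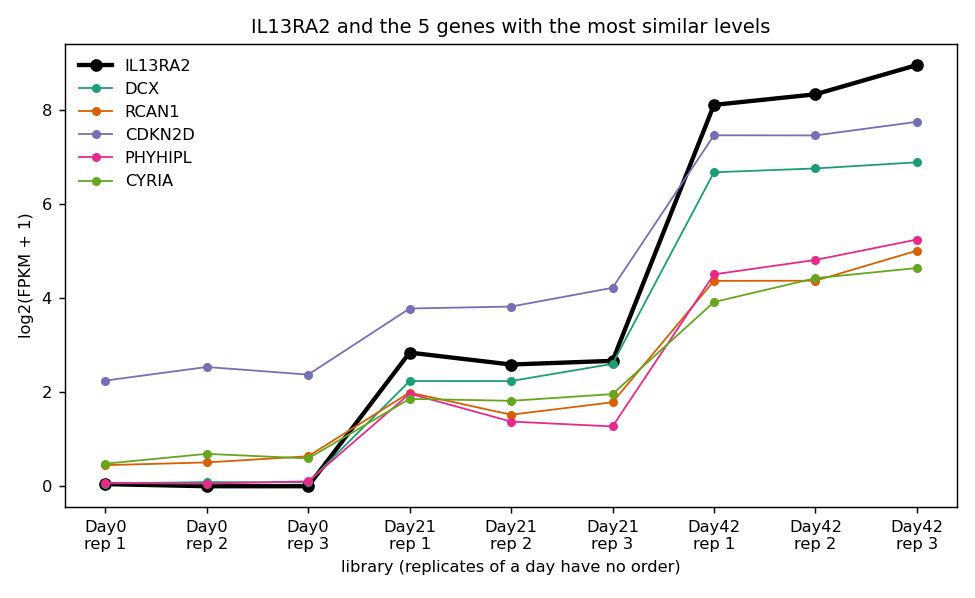
Lines join log2(FPKM + 1) of IL13RA2 and of DCX, RCAN1, CDKN2D, PHYHIPL and CYRIA over the 9 libraries, whose order within a day has no meaning. All 6 genes are lowest on Day0 and highest on Day42, where IL13RA2 is the highest of them.

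The other genes of the pathway were taken from lists of 95 genes covering ligands, receptors, kinases, STAT factors, adaptors, inhibitors, sheddases and targets, of which 85 were in the table and 65 were tested. For Day21 over Day0, 1 of the 65 was called by edgeR, as lower, which is 1.54% against 2.5% of all genes; 8 of the 65 had an unadjusted p under 0.05, and DESeq2 called 9. For Day42 over Day21, 13 were called, 4 higher and 9 lower, or 20% against 26.3% of all genes. For Day42 over Day0, 18 were called, 6 higher and 12 lower, or 27.7% against 32.2% of all genes. The median log2 fold change of the 65 was -0.28, 0.00 and -0.44 in these comparisons. With genes at 0 on 1 day set to their bound, it was -0.28, -0.05 and -0.44. This second median left out genes at 0 on both days. It also left out genes at 0 on 1 day and under the limit on the other. With limma on log2(FPKM + 1), over genes at 1 FPKM or more in 3 libraries, the split was 8 higher and 2 lower for Day42 over Day21, and 11 higher and 5 lower for Day42 over Day0. Over all genes that fit turned the split as well, to 2117 higher and 1749 lower, and to 2342 higher and 2083 lower. Without Day42 replicate 3 the 3 counts were 9, 23 and 28; without Day21 replicate 2 the count for Day42 over Day21 was 7, and without Day21 replicate 3 it was 8. Without Day42 replicate 2 it was 20, and the count for Day42 over Day0 was 28. Leaving out any library of Day0 or Day21 brought the count for Day21 over Day0 to 0.

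Ligands for these receptors were scarce, and of 6 gp130 ligands tested, 2 fell for Day42 over Day21, and 1 rose and 2 fell for Day42 over Day0, where 19.7% and 23.4% of all genes were called lower and 6.52% and 8.82% higher. IL4 had 2 counts in 1 Day0 library and 0 elsewhere. IL13 and OSM were on the lists but had no entry under those names in the table, so no level can be given. CNTF had 3 counts in 1 Day21 library, and IL6 had 20, 49 and 6 counts on Day0 and 0 on Day21 and Day42. LIF had 0, 0.946 and 0.0130 FPKM on Day42, against 0.140, 0.0684 and 0.0499 FPKM on Day21, and was not called. CLCF1, a ligand of the CNTF receptor, rose on Day42, with 3.00, 0.955 and 27.0 FPKM against 0, 0 and 0.0272 FPKM on Day0, and an edgeR adjusted p of 0.00931. Its Day42 libraries differ widely, replicate 3 being the highest; without it the CLCF1 mean on Day42 was 1.98 FPKM and the edgeR adjusted p 0.00675. Against Day21, at 0.412, 0.343 and 0.299 FPKM, the edgeR adjusted p was 0.0904. CTF1, which encodes cardiotrophin-1, another gp130 ligand, had 0 counts in all Day42 libraries, against 128, 113 and 58 counts on Day21, and was at least 11.4-fold lower (edgeR adjusted p = 0.00397). EBI3, a subunit of IL-27, had 0 counts on Day42, against 108, 83 and 69 counts on Day0, a level at least 11.5-fold lower (edgeR adjusted p = 0.00219). CTF1 and EBI3, like PRLR, IL21R, IL12RB2, TYK2, CISH, PTPN6, ALOX15 and GFAP among the genes called, and IL4, IL6, LIF, CNTF, CHI3L1, IL2RG, STAT6, SOCS3 and CSF3R among the others, and the markers AIF1, CD68, PTPRC, GJA1 and S100B, were chosen for naming after their values were seen. The same holds for the single values of the markers STMN2, TUBB3, FEV, DDC, SLC18A2, LMX1B, LUM and COL3A1.

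CHI3L1 and its co-receptor TMEM219 did not follow IL13RA2. CHI3L1 had 0, 0 and 21 counts on Day42, against 12, 4 and 0 counts on Day21. TMEM219 fell on Day42, with 15.7, 22.5 and 19.6 FPKM against 30.1, 40.6 and 32.0 FPKM on Day21. Its log2 fold change was -1.50 ± 0.32 (SE; edgeR adjusted p = 0.00973), and the adjusted p was 0.0528 without Day21 replicate 2. On log2(FPKM + 1) and log2(FPKM + 0.1) limma gave log2 fold changes of -0.80 and -0.83, which do not pass the threshold of 1. IL2RG, the common gamma chain, had 9 counts in 1 Day42 library, 5 counts in 1 Day21 library and 0 in the other 7 libraries.

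Other receptors of the class I list stayed at low levels. IL27RA, which pairs with gp130 for IL-27, had the highest mean of the 23 over days, with 0.782, 0.670 and 2.00 FPKM on Day0, 1.33, 0.601 and 0.983 FPKM on Day21, and 0.938, 3.23 and 0 FPKM on Day42, all overlapping. IL11RA, which binds IL-11 for gp130, had 0, 0 and 0.222 FPKM on Day0, 2.18, 1.89 and 1.43 FPKM on Day21, and 0.00546, 1.05 and 0 FPKM on Day42. It was not called (edgeR adjusted p = 0.506 for Day21 over Day0). Of 12 such receptors tested, 3 were called lower on Day42 against each earlier day, IL12RB2, IL21R and PRLR, all with 0 counts in the Day42 libraries. This is 25% of the 12, where 19.7% of all genes were called lower against Day21 and 23.4% against Day0. Against Day0 they were at least 20.7-fold, 34.6-fold and 3.94-fold lower. Against Day21 the bounds were 1.12-fold, 1.26-fold and 3.54-fold, since IL12RB2 had 20, 3 and 8 counts and IL21R 8, 8 and 16 counts there, mostly under the limit of 12.

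Among the Janus kinases, which carry the signal of class I receptors, TYK2 fell and the others were not called. This is 25% of 4 tested for Day42 over Day21 and for Day42 over Day0, against 26.3% and 32.2% of all genes. TYK2 had 7, 0 and 0 counts on Day42, against 249, 136 and 113 counts on Day21 (edgeR adjusted p = 0.0225, or 0.0551 to 0.0610 without any 1 of the Day21 libraries). Because the Day42 counts lie under the limit of 12, no size is given for this fall. JAK1 had 3.69, 4.01 and 1.18 FPKM on Day42, against 1.94, 1.00 and 0.943 FPKM on Day21, and an edgeR adjusted p of 0.559. JAK2, the main kinase for several class I receptors, had 1.59, 3.20 and 0 FPKM on Day42, against 0.177, 0.122 and 0.155 FPKM on Day21, with replicate 3 again at 0, and an edgeR adjusted p of 0.338.

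STAT3, the factor downstream of gp130, rose on Day42 and STAT6, the factor downstream of IL4R, was not called. STAT3 had 2.09, 1.901 and 3.71 FPKM on Day0, 3.15, 1.93 and 1.88 FPKM on Day21, and 12.6, 13.1 and 6.89 FPKM on Day42. Every Day42 library was above every earlier one. The log2 fold change was 1.59 ± 0.38 (SE; edgeR adjusted p = 0.0161) against Day21 and 1.38 ± 0.38 (edgeR adjusted p = 0.0235) against Day0. Without Day21 replicate 2 or 3 the first adjusted p was 0.0753 or 0.0747, and without Day0 replicate 1 or 2 or Day42 replicate 1 the second was 0.0923, 0.0821 or 0.0530. STAT6 had 0.0794, 0.246 and 0.400 FPKM on Day0, 0.364, 0.134 and 0.213 FPKM on Day21, and 0, 0.667 and 0 FPKM on Day42 (edgeR adjusted p = 0.854 for Day42 over Day21). Like IL13RA1 and IL4R it was highest on Day42 in replicate 2.

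Of 7 adaptors tested, IRS1 rose for Day42 over Day21, and IRS1 and GRB2 rose for Day42 over Day0. These are 14.3% and 28.6% of the 7, against 26.3% and 32.2% of all genes called in either direction. The shares of all genes called higher were 6.52% and 8.82%. IRS1, an adaptor that IL4R shares with the insulin receptor, had 0.143, 0.0707 and 0.138 FPKM on Day0, 0.352, 0.166 and 0.404 FPKM on Day21, and 1.65, 3.37 and 3.92 FPKM on Day42. The log2 fold change was 3.94 ± 0.70 (SE; edgeR adjusted p = 0.00368) against Day0 and kept its call in all 16 alternatives. Against Day21 it was 2.64 ± 0.66 (edgeR adjusted p = 0.0189), and leaving out any 1 Day21 library gave an adjusted p of 0.0538 to 0.0874. GRB2, the adaptor that links receptors to Ras, had 20.9, 20.2 and 29.2 FPKM on Day42, against 6.58, 7.53 and 6.91 FPKM on Day0. Its log2 fold change was 1.05 ± 0.32 (SE; edgeR adjusted p = 0.0384), just past the threshold of 1, and it lost its call in 10 of 16 alternatives, with 0.81 without Day42 replicate 3.

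Of 15 inhibitors tested, 1 rose and 1 fell for Day42 over Day21, which is 13.3% against 26.3% of all genes, and 1 rose and 3 fell for Day42 over Day0, which is 26.7% against 32.2%. SOCS6, a member of the suppressor of cytokine signalling family, had 3.92, 4.02 and 10.6 FPKM on Day42, against 1.14, 1.01 and 1.22 FPKM on Day21 (log2 fold change 1.83 ± 0.55 SE, edgeR adjusted p = 0.0407). Without Day42 replicate 3 the log2 fold change was 1.15 (edgeR adjusted p = 0.0215), and leaving out any 1 library of Day0 or Day21 gave an adjusted p of 0.0650 to 0.136. CISH, which is induced by STAT5, had 0 counts in all Day42 libraries, against 322, 188 and 181 counts on Day21, and was at least 26.0-fold lower (edgeR adjusted p = 0.00278). PIAS1, a SUMO ligase that restrains cytokine signalling, had 17.0, 15.7 and 21.7 FPKM on Day42, against 2.82, 5.26 and 3.27 FPKM on Day0, with a log2 fold change of 1.57 ± 0.31 (SE; edgeR adjusted p = 0.00584). PIAS4, of the same family, had 13.6, 11.6 and 6.14 FPKM on Day42, against 12.4, 17.0 and 13.4 FPKM on Day0; the FPKM values overlapped, the log2 fold change was -1.17 ± 0.36 (SE; edgeR adjusted p = 0.0391), and 13 of 16 alternatives lost the call, with -0.92 without Day42 replicate 3. PTPN6, the phosphatase SHP-1, best known from blood cells, had 0, 5 and 15 counts on Day42, against 324, 367 and 441 counts on Day0 (edgeR adjusted p = 0.0124). It already stood at 4, 4 and 8 counts on Day21, but that fall was not called (edgeR adjusted p = 0.0547 for Day21 over Day0). Of the blood cell and microglial markers, AIF1 moved with it, at 0.0436, 0.0895 and 0.143 FPKM on Day42 against 5.32, 6.54 and 5.02 FPKM on Day0, while PTPRC was at most at 0.0692 FPKM in any library and CD68 ran the other way. The 5 epithelium markers summed to 252 to 457 FPKM on Day0, 9.02 to 11.5 on Day21 and 29.4 to 48.4 on Day42. All 5 were lower in every Day21 library than in every Day0 library. The part of either list in the PTPN6 level was not tested.

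ADAM10 and ADAM17, proteases that shed receptors such as IL6R from the surface, were not called. ADAM10 had 1.57, 2.54 and 2.37 FPKM on Day42, against 0.894, 0.778 and 0.961 FPKM on Day21 (edgeR adjusted p = 0.272). ADAM17 had 0.680, 0.662 and 3.58 FPKM on Day42, against 0.654, 0.443 and 0.397 FPKM on Day21 (edgeR adjusted p = 0.367), with replicate 3 well above the other Day42 libraries, whose mean was 0.671 FPKM.

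Of 4 genes tested that STAT6 activates in other tissues, 2 fell for Day42 over Day0, CCL26 and ALOX15. This is 50% of the 4, where 23.4% of all genes were called lower, and nothing is read from so few genes. CCL26, the chemokine eotaxin-3, is a textbook target of IL-4 and IL-13. It had 1736, 2071 and 1604 counts, or 34.6, 36.4 and 28.3 FPKM, on Day0, 0 counts in all Day21 libraries, and 3, 0 and 0 counts on Day42. It was at least 168-fold lower for Day21 over Day0 (edgeR adjusted p = 0.0216), and this was the 1 call among the 65 genes; without any 1 library of those days the adjusted p was 0.0787 to 0.118. For Day42 over Day0 it fell as well (edgeR adjusted p = 0.00409). ALOX15, a lipoxygenase induced by IL-4, had 12, 50 and 69 counts on Day0 and 0 on both later days, at least 5.26-fold lower on Day42 (edgeR adjusted p = 0.0137, or 0.0503 and 0.0509 without Day0 replicate 2 or 3).

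Of 7 STAT3 targets tested, MYC rose for Day42 over Day21, and JUNB rose and GFAP fell for Day42 over Day0. With the GFAP call against Day21 treated below, 28.6% of the 7 were called in each comparison, against 26.3% and 32.2% of all genes. MYC, a growth regulator, had 8.17, 11.0 and 14.1 FPKM on Day42, against 2.76, 1.02 and 0.613 FPKM on Day21, with a log2 fold change of 2.35 ± 0.66 (SE; edgeR adjusted p = 0.0317), and 0.121, 0.108 and 0.0597 without Day21 replicate 2, Day21 replicate 3 or Day0 replicate 1. JUNB, an AP-1 factor, had 24.4, 14.8 and 3.75 FPKM on Day42, against 0.406, 0.217 and 0.869 FPKM on Day0, with a log2 fold change of 4.16 ± 1.00 (SE; edgeR adjusted p = 0.0135), and 0.0609 or 0.0526 without Day0 replicate 1 or 2. GFAP, the astrocyte filament gene, had 27, 15 and 70 counts on Day0, 13, 7 and 6 counts on Day21 and 0 counts on Day42, which is at least 4.61-fold under Day0 (edgeR adjusted p = 0.00333). Against Day21 edgeR called it lower as well, but its mean level on Day21 is under the limit that 0 counts on Day42 allow, so no fall is read from that call. SOCS3, the feedback inhibitor that STAT3 induces, had 0.977, 0.314 and 0 FPKM on Day42, against 0.213, 0.0866 and 0.0633 FPKM on Day21, and was not called (edgeR adjusted p = 0.673).

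**Figure D4:**
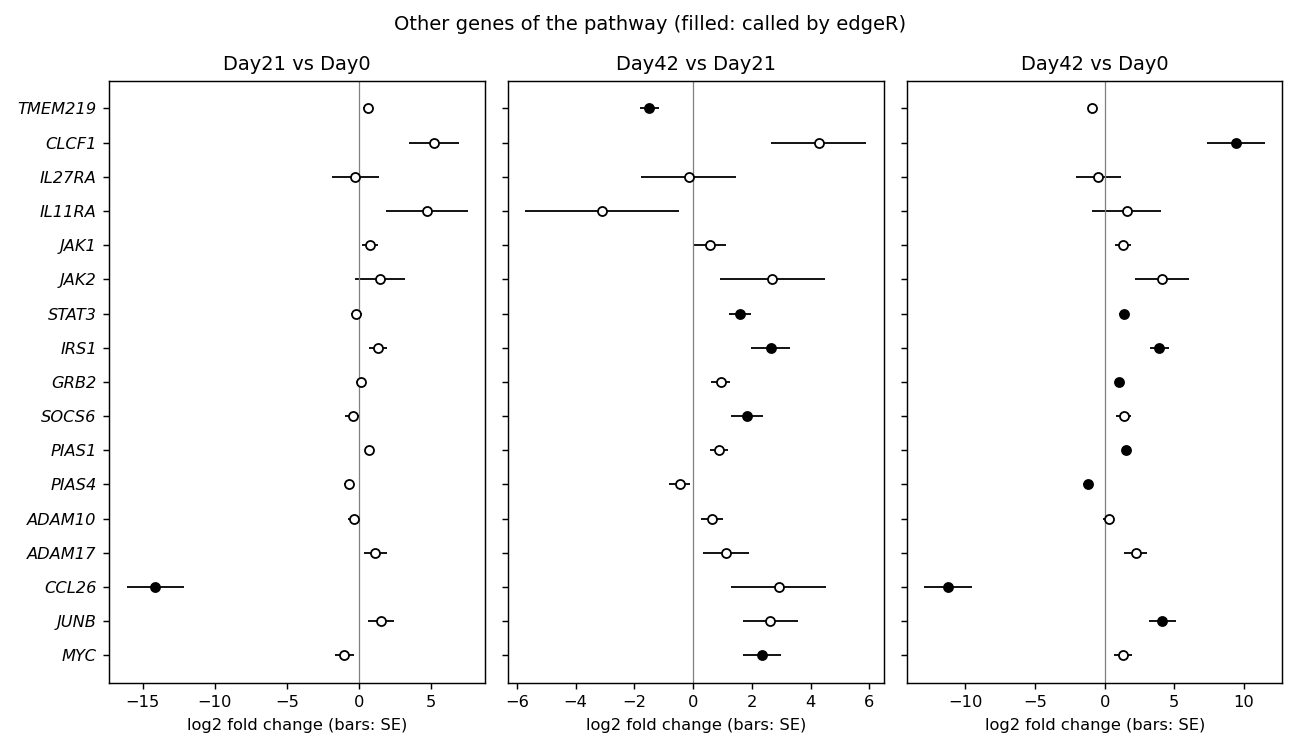
Fitted log2 fold changes with standard errors for the pathway genes named by rule in the comparisons Day21 over Day0, Day42 over Day21 and Day42 over Day0, with filled points for genes called by edgeR. STAT3 and IRS1 are filled to the right of 0 in both Day42 comparisons, while CCL26 is filled to the left of 0 against Day0; its plotted size depends on the prior count, since Day21 held 0 counts.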

How the data were processed

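RNA sequencing libraries were prepared from about 10 ng of Trizol-extracted total RNA with a NEBNext low-input kit, per the labels' protocols. Cutadapt 1.9, FastQC and GRCh38 are listed in the submitters' processing notes, and no source used here names the aligner, the counter, the annotation or the strand setting. The deposited table holds a raw count per gene and library and an FPKM value, both made by the authors, per the file headers. No source used here gives the library total behind FPKM. Table columns were assigned to libraries by their names, and 0 were left over.

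Counts were analysed with edgeR 4.0.16 in R 4.3.3 (filterByExpr, TMM scaling, quasi-likelihood fit over all 9 libraries with 1 mean per day, 6 residual degrees of freedom, prior 2.42, Benjamini-Hochberg adjustment over 20156 genes). Each standard error is the absolute log2 fold change divided by the square root of the F statistic of its quasi-likelihood test. Limits at 0 counts and intervals cover counting error only. A fold against a day at 0 in all libraries is a lower bound for counting error alone, computed against 12 counts per library. DESeq2 1.42.0 and limma 3.58.1 (log2 of deposited FPKM plus 1 or 0.1, genes at 1 FPKM or more in 3 libraries) served as alternatives, with median-of-ratios scaling, no filter, a fit of only 2 days, a replicate block, and each library left out in turn. Tables and plots were made in Python 3.11.15 with pandas 2.3.3 and matplotlib 3.10.9.

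The 7 receptors, the pathway and marker lists and the tests were chosen with earlier results of these data known. From each pathway list up to 4 called genes with the largest change and a mean of at least 1 FPKM on some day were named, or the 2 with the highest level in a list without calls, and the 5 genes most like IL13RA2 among unique symbols without a dash or dot. Names outside this rule are marked in the text. Of the deposited identifiers, 33890 (96.9%) were in GENCODE 29. CLCF1, IL11RA, IL21R, PRLR, IL2RG, JAK1, JAK2, STAT6, GRB2, PIAS1, CISH, ADAM10, ADAM17, JUNB, GFAP, LIF, IL6, CNTF, PHYHIPL, CYRIA, TPH2 and POU5F1 overlap other gene models and are uncertain for that reason.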

Additional observations from a re-analysis of the deposited data

How the results depend on the processing

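The number of genes called moved most for Day21 over Day0, where 504 genes were called by edgeR, against 2448 with DESeq2, 1318 and 1344 with limma at pseudocounts of 1 and 0.1, 5009 with only the 2 days fitted, and 133 to 2894 with 1 library left out. The pathway count there was 1, against 9 with DESeq2, 3 and 2 with limma, 18 with only the 2 days fitted, and 0 to 9 with 1 library left out. For Day42 over Day21 the 5295 calls became 3301 to 7275 with 1 library left out, and the 13 pathway calls became 20 with DESeq2, 7 with only the 2 days fitted, and 7 to 23 with 1 library left out. For Day42 over Day0 the 6499 calls became 4617 to 8884 and the 18 pathway calls became 13 to 28 with 1 library left out. Over these 6 counts, 55 of 96 alternative values were within 1.5 times the value reported.

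With the replicate number as a block, the genes called were 109, 2420 and 3710 and the pathway genes called 0, 4 and 12 in the comparisons Day21 over Day0, Day42 over Day21 and Day42 over Day0. Same-numbered libraries did not deviate together: the correlation of their deviations from the day means was -0.225 to 0.0266 over 9 pairs, and 0 of 9 libraries correlated best with their own number. No pairing was seen by this measure. It could miss a weak pairing, since each day has few libraries and Day42 replicate 3 stands apart.

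Of 318 alternative fold changes of the 7 receptors, 301 stayed within 1 SD of the value reported and 17 moved further. That SD is the spread between libraries within the 2 days compared, and it is wide where some Day42 libraries lie near 0. The LIFR fold change for Day42 over Day21 ran from -0.78 to 0.61 and still stayed within it. The count is therefore not read as stability. For IL13RA2 the fold change of Day42 over Day21 ranged from 5.08 to 5.97 on the log2 scale. Against Day0 its fitted value ranged from 2.68 to 12.72 for Day21 and from 8.44 to 18.12 for Day42, the lowest with a pseudocount of 1 and the highest without the Day0 library that holds its 4 counts. The IL6R fold change for Day42 over Day0 was -0.17, against 0.33 without Day42 replicate 3 and -2.44 without Day42 replicate 1. Of 534 alternative values of called pathway genes and label checks, 456 kept the call, 78 lost it and 0 changed direction. The cause of these shifts was not tested. With 3 libraries a day and counts in steps of 4, a level under 12 counts could also give 0 counts in a library, so its size is uncertain.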
